A study of Arabidopsis thaliana with 8 samples.

Results

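The comparison set both NGATHA lines, a loss-of-function and a gain-of-function line, together against wild type, and asked which transcripts differ from wild type in the same direction in both. Carpels of Arabidopsis thaliana, ecotype Columbia, were picked by hand at floral stages 8 to 13, with 15 inflorescences given for each sample, from soil-grown plants kept in long days. RNA sequencing gave 8 libraries, and all 8 of the series enter the comparison. There were 3 nga libraries, whose genotype label names mutations of all 4 NGATHA genes, 3 libraries of 35S:NGA, an overexpression line, and 2 wild-type (WT) libraries. The 35S promoter of cauliflower mosaic virus is active in most plant tissues, so the transgene is not limited to the cells where NGATHA genes are normally transcribed, and the label does not say which NGATHA gene it drives. The labels give 1 genotype for each line, and nothing in them says that replicates are of separate plants. The p-values then reflect no more than the spread between the libraries at hand, and that spread may be technical.

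The deposited value is RPKM, the reads of a gene divided by its length and by the library's mapped reads. For each gene the mean of the nga libraries and the mean of the 35S:NGA libraries were averaged, and the WT mean was subtracted, on the log2(RPKM + 1) scale. This scale understates the change of genes at low RPKM. Of 27197 loci, the 17786 that reached 1 RPKM in 2 or more libraries were tested with limma. P-values were adjusted over all of them with the Benjamini-Hochberg method, and a call needs an adjusted p under 0.05. A gene is termed shared where every library of both lines lies on one side of both WT libraries.

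NGATHA genes encode transcription factors with a B3 DNA-binding domain that act jointly at the upper end of the pistil. Their loss is known to leave the pistil without style and stigma tissue, and their overexpression is known to restrict the growth of lateral organs. The libraries are of bulk tissue, in which fewer cells of a type cannot be told apart from less RNA per cell.

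The NGATHA genes themselves separated the 2 lines. NGA3 (AT1G01030, chr1:11649-13714, TAIR10.1) had 2.56, 2.65 and 2.97 RPKM in nga, 102, 119.7 and 166 RPKM in 35S:NGA, and 5.47 and 4.81 RPKM in WT. It lay below WT in every nga library and far above WT in every 35S:NGA library, so its combined change of 1.83 ± 0.18 (SE, adjusted p = 0.0144) averages opposite differences of -0.72 in nga and 4.38 in 35S:NGA. NGA4 (AT4G01500, chr4:639247-640976) had 0.131, 0.123 and 0.248 RPKM in nga, 4.15, 4.56 and 3.68 RPKM in 35S:NGA, and 3.97 and 3.83 RPKM in WT, with a combined change of -1.003 ± 0.14 (SE, adjusted p = 0.0295) that came from nga, where the difference was -2.07, against 0.06 in 35S:NGA. Neither gene was shared. NGA1 overlapped WT in nga but was below both WT libraries in every 35S:NGA library, and NGA2 overlapped WT in both lines, with combined differences of -0.27 ± 0.17 (SE, adjusted p = 0.328) and -0.01 ± 0.23 (SE, adjusted p = 0.977). A call in the combined comparison alone therefore does not say that both lines moved together, and the shared rule is read beside it throughout.

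Shared genes were common and mostly small in size. By the rule, 2635 genes were higher in both lines, 14.8% of those tested, and 2642 were lower in both, 14.9%. The median combined difference was 0.57 for the shared higher genes, with 0.65 in nga and 0.47 in 35S:NGA, and -0.45 for the shared lower genes, with -0.51 in nga and -0.37 in 35S:NGA. At least a 2-fold difference in both lines was seen for 282 shared higher and 58 shared lower genes. In 2160 shared genes the nearest library of the lines was less than 0.1 on the log2 scale from the nearest WT library, and in 51, of which 48 were higher and 3 lower, it was at least 1 away. TTA2, with 36.4, 42.3 and 28.1 RPKM in nga, 40.7, 33.2 and 22.8 RPKM in 35S:NGA, and 22.8 and 20.7 RPKM in WT, is the shared higher gene with a symbol and at least 5 RPKM that is nearest to the limit, and LRL1, with 4.75, 4.32 and 4.88 RPKM in nga, 3.80, 3.87 and 8.45 RPKM in 35S:NGA, and 3.80 and 2.88 RPKM in WT, lay just outside it. On the lower side PRS2, with 19.2, 18.04 and 21.3 RPKM in nga, 17.2, 18.1 and 16.7 RPKM in 35S:NGA, and 21.7 and 21.3 RPKM in WT, was just inside, and PAL1, with 4.103, 11.3 and 21.7 RPKM in nga, 12.5, 17.5 and 24.1 RPKM in 35S:NGA, and 29.4 and 24.1 RPKM in WT, just outside.

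The combined comparison called 533 genes higher, 3.00% of those tested, and 330 lower, 1.86%, which makes 863 in all, or 4.85%. Of these, 524 were shared and higher, 284 were shared and lower, and 55 were not shared. The shared rule reads the same values as the test, so this overlap is a description. Higher genes made up 61.8% of the calls, against 45.7% after quantile normalization and 48.2% with library medians set equal. They made up 44.9% when the lane entered as a term and 50.1% when lane 8 was left out. Without nga 3 alone they made up 49.9%, and without 35S:NGA 3, the other lane 8 library, 64.5%. The excess of higher calls thus depended on the scaling and on the libraries and terms in the fit. The median combined difference over all tested genes was 0.01.

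Calls rested on few libraries, and the 2 WT libraries enter every value. Without WT 1 limma called 0 genes, with 3019 at an unadjusted p under 0.05, and without WT 2 it called 0, with 2153 at that level, against 5387 with all libraries. Without nga 1 it called 24 genes and without 35S:NGA 1 it called 18. The count was 3431 without nga 3, 450 without nga 2, 555 without 35S:NGA 2 and 467 without 35S:NGA 3. Of the 51 called genes among those named by rule, 0 remained called without either WT library, 6 without nga 1 and 5 without 35S:NGA 1. When the 6 libraries of both lines were treated as 1 group, so that differences between the lines counted as spread, 2 genes were called, HB21 and AT2G05540, a locus without a symbol. The tests below are those of the 8-library fit and carry this limit.

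Mapped reads per library, estimated from the steps between low values, lay between about 23.0 M and 38.0 M, and between 16737 and 17329 loci reached 1 RPKM. File headers place both WT libraries with nga 1 and nga 2 in lane 6. The first and second 35S:NGA libraries are in lane 7, and the third library of either line is in lane 8. No lane holds both WT and 35S:NGA, so that line cannot be compared with WT inside any lane. Where lane effects are modelled, the link of 35S:NGA to WT runs only through nga 3 and 35S:NGA 3 in lane 8. Such a model also takes each lane to shift all genotypes alike, which was not tested. Values of nga 1 and nga 2 against WT within lane 6 are given for leading genes. The library nga 2 stood apart in the circadian clock: CCA1, a morning-phased clock transcription factor, had 0.875, 132 and 0.758 RPKM in nga, 0.646, 2.86 and 2.17 RPKM in 35S:NGA, and 0.460 and 0.824 RPKM in WT, and LHY, its close relative, had 0.604, 115 and 0.767 RPKM in nga, 0.482, 1.15 and 1.19 RPKM in 35S:NGA, and 0.556 and 0.670 RPKM in WT. The part of this in the results was not tested. Of the 78 genes named by rule, 25 overlap another annotated gene, and whether counting used the strand is not given in the sources used here, so their values are less certain. They are ALC, ANNAT1, ASN1, BCAT-2, BZIP9, CDKB1;2, CER2, EDS5, EXT3, GRF3, IAA13, J8, JAZ12, KAT5, LHCA4, LHCB4.2, MCM7, RPI2, RVE1, SCPL7, SHP1, TCH3, TET7, TKPR1 and TTA2. Among the shared genes, nga 2 was the library farthest from WT in 46.5% of the higher and 65.4% of the lower ones, and 35S:NGA 2 was the nearest in 39.6% of the higher and 31.9% of the lower ones.

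The largest shared increase was that of SEN1 (AT4G35770, chr4:16944878-16946266), which darkness and senescence are known to induce. It had 293, 687 and 264 RPKM in nga, 205, 35.2 and 173 RPKM in 35S:NGA, and 1.60 and 1.18 RPKM in WT. All 6 libraries of the lines were far above WT, with 35S:NGA 2 the lowest of them. The combined change was 6.42 ± 0.65 (SE, adjusted p = 0.0144), with 7.31 in nga and 5.52 in 35S:NGA, and 7.56 for the nga libraries of lane 6. BCAT-2 (AT1G10070, chr1:3288087-3290471), which encodes a branched-chain amino acid aminotransferase of amino acid breakdown, had 33.0, 93.0 and 11.2 RPKM in nga, 16.2, 8.60 and 23.8 RPKM in 35S:NGA, and 0.126 and 0.184 RPKM in WT. WT was near 0 in both of its libraries, and the combined change was 4.33 ± 0.67 (SE, adjusted p = 0.0366).

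A pair of related homeodomain-leucine zipper transcription factors rose in both lines. HB40 (AT4G36740, chr4:17314453-17316441) had 37.5, 113 and 9.75 RPKM in nga, 31.1, 20.3 and 32.0 RPKM in 35S:NGA, and 1.52 and 0.840 RPKM in WT, a combined change of 3.89 ± 0.72 (SE, adjusted p = 0.0376). HB21 (AT2G18550, chr2:8049371-8051316) had 6.97, 10.4 and 6.42 RPKM in nga, 6.26, 6.69 and 8.38 RPKM in 35S:NGA, and 0.459 and 0.132 RPKM in WT, a combined change of 2.71 ± 0.20 (SE, adjusted p = 0.0144). HB21 was lower in level than HB40 but the more even: its 6 line libraries spanned 6.26 to 10.4 RPKM, and the lines differed by -0.12 (35S:NGA minus nga, adjusted p = 0.751). Within lane 6 nga exceeded WT by 4.94 for HB40 and 2.89 for HB21. HB53, the third member of this group, known together with the other two from dormant axillary buds, was chosen after its values were seen. It had 2.94, 6.09 and 1.20 RPKM in nga, 2.22, 3.51 and 0.323 RPKM in 35S:NGA, and 0.0926 and 0.0980 RPKM in WT and was shared but did not pass the test, at 1.57 ± 0.52 (SE, adjusted p = 0.0968). NCED3, looked at along with HB53, was not shared, at 0.34 ± 0.52 (SE, adjusted p = 0.683). It had 4.46, 3.00 and 0.496 RPKM in nga, 2.94, 5.53 and 1.28 RPKM in 35S:NGA, and 1.39 and 2.24 RPKM in WT.

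NAP (AT1G69490, chr1:26122080-26123514), a NAC transcription factor that promotes leaf senescence, rose as well, with 15.8, 44.8 and 6.73 RPKM in nga, 8.30, 8.60 and 2.95 RPKM in 35S:NGA, and 0.628 and 0.346 RPKM in WT and a combined change of 2.93 ± 0.61 (SE, adjusted p = 0.0429). Its lowest line library, 35S:NGA 3, was still above both WT libraries. MIOX4, a myo-inositol oxygenase, had 88.5, 187 and 159 RPKM in nga, 41.5, 19.97 and 77.2 RPKM in 35S:NGA, and 5.25 and 7.504 RPKM in WT, a change of 3.37 ± 0.47 (SE, adjusted p = 0.0305). J8, a DnaJ-like protein of chloroplasts, had 480.4, 675 and 208 RPKM in nga, 259, 50.7 and 189 RPKM in 35S:NGA, and 26.2 and 17.0 RPKM in WT, a change of 3.42 ± 0.63 (SE, adjusted p = 0.0376), and again 35S:NGA 2 was the lowest of the line libraries. PAP85, a cupin-fold protein, changed by 3.17 ± 0.60 (SE, adjusted p = 0.0385) and ZW9 by 3.06 ± 0.39 (SE, adjusted p = 0.0292). The last of the 10 genes named by rule for their increase was GLYI4, a glyoxalase I family member. It had 89.4, 217 and 65.3 RPKM in nga, 31.9, 9.30 and 26.9 RPKM in 35S:NGA, and 3.94 and 2.77 RPKM in WT. Its change of 3.48 ± 0.53 (SE, adjusted p = 0.0366) was unequal in size between the lines.

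**Figure D1:**
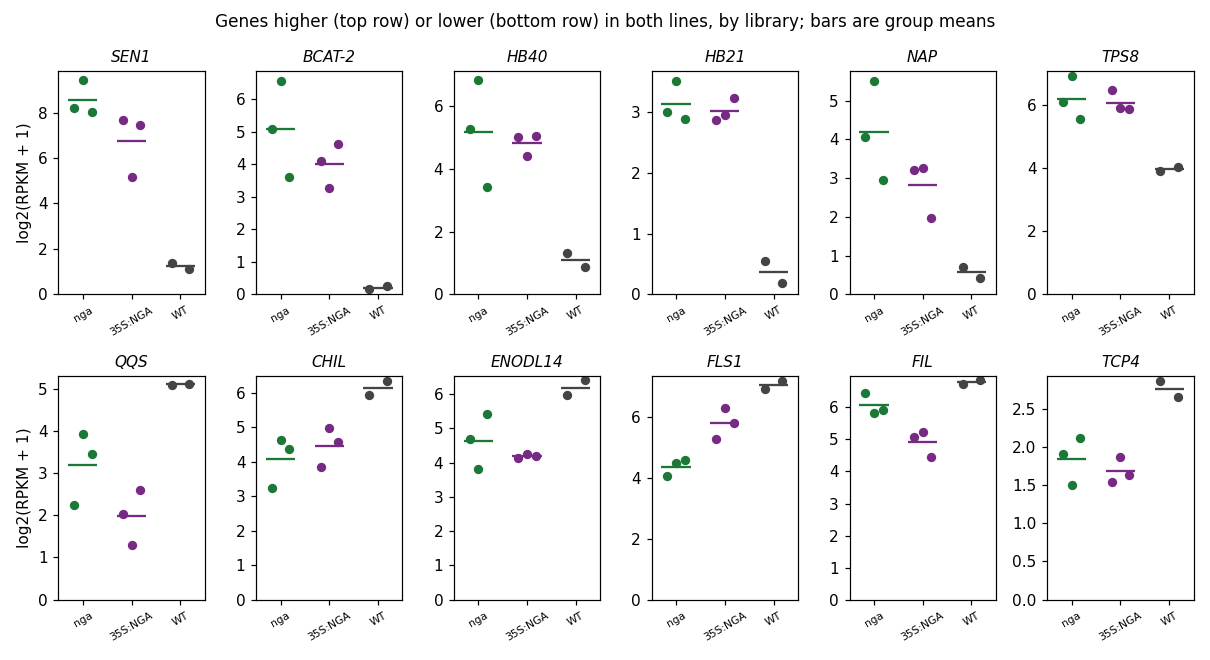
Level of 12 shared genes in every library, as log2(RPKM + 1), with nga and 35S:NGA left of WT, points for libraries and bars for group means. In the top row every library of both lines is above both WT libraries, by 3.80 for SEN1 between the nearest libraries, and in the bottom row every one is below.

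Promoters were read for the 10 shared and called genes per direction whose smaller change in the lines was largest, as these moved together in both lines. Only genes with a symbol entered, so AT2G05540, at 5.29 in nga and 4.68 in 35S:NGA, was not among them. Genes without a call, such as ATSDI1, at -2.40 in nga and -2.36 in 35S:NGA, were not among them either. The search was for CACCTG, the core of the element that NGATHA-type B3 domains are reported to bind, and for CACGTG, the G-box bound by bZIP and bHLH factors, on both strands of the 250 bases before each gene start (RefSeq annotation of TAIR10.1). The 2 motifs do not overlap each other. CACCTG was in 0 of the 10 promoters of increased genes and 0 of the 10 of decreased genes. It was in 2.28% of the promoters of all shared higher genes, 2.35% of those of shared lower genes and 2.51% of those of all tested genes. CACGTG was in 2 promoters of each 10, and in 8.82% of shared higher, 6.37% of shared lower and 7.42% of all tested genes. The 4 windows that hold CACGTG are shown, with the motif in capitals, and none overlaps an annotated neighbour. They are chr4:17316442-17316691 on the minus strand for HB40, chr1:26121830-26122079 on the plus strand for NAP, chr5:1563036-1563285 on the plus strand for CHIL and chr4:10114544-10114793 on the plus strand for KAT2.
HB40: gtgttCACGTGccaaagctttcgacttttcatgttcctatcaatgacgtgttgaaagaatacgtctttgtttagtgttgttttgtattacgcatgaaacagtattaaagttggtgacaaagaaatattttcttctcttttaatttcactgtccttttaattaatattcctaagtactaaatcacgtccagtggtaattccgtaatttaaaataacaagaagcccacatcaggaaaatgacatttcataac
NAP: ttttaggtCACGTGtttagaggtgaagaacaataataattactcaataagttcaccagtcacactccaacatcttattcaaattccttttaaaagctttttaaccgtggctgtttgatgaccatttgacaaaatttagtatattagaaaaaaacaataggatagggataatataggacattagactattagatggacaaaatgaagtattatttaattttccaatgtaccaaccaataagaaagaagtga
CHIL: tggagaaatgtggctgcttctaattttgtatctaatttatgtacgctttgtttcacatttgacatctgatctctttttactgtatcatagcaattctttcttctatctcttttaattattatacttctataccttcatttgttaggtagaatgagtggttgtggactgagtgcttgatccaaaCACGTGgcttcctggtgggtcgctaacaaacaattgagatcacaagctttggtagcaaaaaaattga
KAT2: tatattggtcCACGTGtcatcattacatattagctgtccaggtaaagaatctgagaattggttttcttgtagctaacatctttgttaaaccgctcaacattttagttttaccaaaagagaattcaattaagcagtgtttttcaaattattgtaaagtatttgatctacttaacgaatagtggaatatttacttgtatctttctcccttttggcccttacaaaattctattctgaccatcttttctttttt
The motif begins 245 bases before the gene start in HB40, 242 in NAP, 67 in CHIL and 240 in KAT2. HB40 and NAP rose in both lines and CHIL and KAT2 fell, so the same letters stood before genes of either direction. A match is a description of these letters and not of a bound site.

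Genes known from darkness, sugar starvation and low energy were higher together in both lines. This list and those below were chosen with earlier results of these data known, so their shares are descriptions and not independent support. Of the 21 tested members of a list of dark-inducible and energy stress genes, 17 (81.0%) were shared and higher, beside 14.8% of all genes, 0 were shared and lower, and 10 were called higher, beside 3.00% of all genes. The median combined difference of the list was 1.39, beside 0.01 for all genes, with 1.69 in nga and 0.98 in 35S:NGA. ASN1, the asparagine synthetase that stores nitrogen under carbon shortage, had 489, 1210.2 and 291 RPKM in nga, 128, 47.9 and 137 RPKM in 35S:NGA, and 47.7 and 28.2 RPKM in WT and rose by 2.62 ± 0.57 (SE, adjusted p = 0.046). Most of this came from nga, at 3.89, against 1.34 in 35S:NGA (limma, adjusted p = 0.274). ASN1 was barely shared, since 35S:NGA 2 lay just above WT 1. DIN4, a subunit of the branched-chain keto acid dehydrogenase, rose by 2.07 ± 0.44 (SE, adjusted p = 0.0431), and IVD, the next step of leucine breakdown, by 1.09 ± 0.23 (SE, adjusted p = 0.0428). DIN10, a raffinose synthase family gene, had 214, 420.3 and 261 RPKM in nga, 331, 97.9 and 251 RPKM in 35S:NGA, and 59.4 and 48.5 RPKM in WT and rose by 2.14 ± 0.44 (SE, adjusted p = 0.0421). DRM1, a dormancy-associated gene, had 1719, 1334 and 879.6 RPKM in nga, 1034, 374 and 789 RPKM in 35S:NGA, and 277 and 189.7 RPKM in WT and rose by 2.004 ± 0.40 (SE, adjusted p = 0.0412).

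The class II trehalose-phosphate synthase genes TPS8 to TPS11, which respond to sugar status, were all shared and higher. TPS8 (AT1G70290, chr1:26470795-26474833) had 67.0, 120.2 and 45.8 RPKM in nga, 86.4, 58.3 and 56.7 RPKM in 35S:NGA, and 13.8 and 15.5 RPKM in WT and rose by 2.16 ± 0.33 (SE, adjusted p = 0.0366), nearly alike in nga (2.22) and 35S:NGA (2.097). TPS11 rose by 1.69 ± 0.39 (SE, adjusted p = 0.0498). TPS9 and TPS10 did not pass the test, with 1.48 ± 0.35 (SE, adjusted p = 0.0518) and 0.97 ± 0.25 (SE, adjusted p = 0.06). MCCA, a subunit of methylcrotonyl-CoA carboxylase, was also shared without a call, at 2.41 ± 0.57 (SE, adjusted p = 0.0528), and bZIP63 and bZIP1, transcription factors of the low-energy response, had 1.16 ± 0.31 (SE, adjusted p = 0.065) and 1.02 ± 0.37 (SE, adjusted p = 0.117). MCCB, ETFQO, GDH2 and bZIP53 were not shared. bZIP53 had 5.38, 5.28 and 3.92 RPKM in nga, 5.64, 5.87 and 5.48 RPKM in 35S:NGA, and 4.96 and 8.49 RPKM in WT, and the groups overlapped.

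Every library of the lines was above WT in the median of this list. That median, as a difference from the mean of WT, was 1.52, 2.46 and 1.02 in nga 1 to nga 3, 1.55, 0.53 and 1.16 in 35S:NGA 1 to 35S:NGA 3, and 0.13 and -0.13 in WT 1 and WT 2. The library nga 2, with the high clock genes, was the highest, and 35S:NGA 2 the lowest of the lines. Without nga 2 the list held 17 shared higher members and 6 calls, without 35S:NGA 2 it held 20 and 11, and without both lane 8 libraries 17 and 14. Without WT 1 or WT 2 it held 0 calls, without nga 1 or without 35S:NGA 1 it held 1 each, without 35S:NGA 3 it held 3 and without nga 3 it held 16. With no filter on low values it held 1, and with a pseudocount of 5 it held 5.

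**Figure D2:**
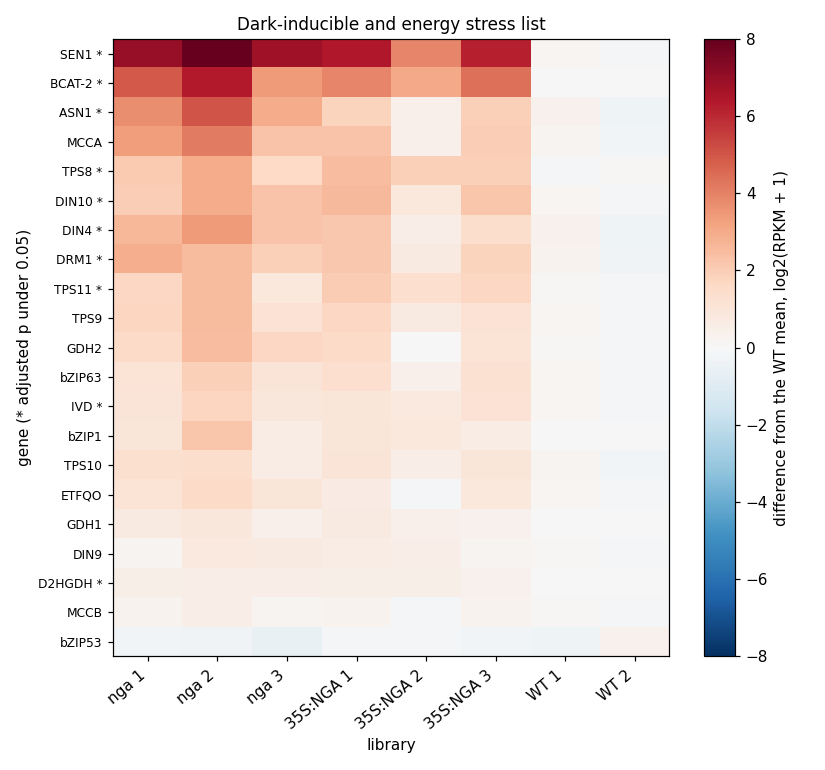
Difference from the WT mean, in log2(RPKM + 1), of the 21 tested genes of the dark-inducible and energy stress list (rows) in each library (columns, nga and 35S:NGA before WT), with called genes marked by an asterisk. Rows are ordered by the combined difference, and 17 of 21 are higher in all 6 libraries of the lines than in both WT libraries. The list was chosen with earlier results of these data known.

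Genes set widely apart from WT included several enzymes. There were 28 shared higher genes with a symbol, at least 5 RPKM in a group mean and a gap of at least 1 on the log2 scale between the nearest libraries. Those given here were chosen after their values were seen. AGT, a peroxisomal alanine:glyoxylate aminotransferase, had 202, 729 and 126 RPKM in nga, 152, 124 and 122 RPKM in 35S:NGA, and 35.1 and 31.4 RPKM in WT and rose by 2.46 ± 0.54 (SE, adjusted p = 0.0468). UGE1, a UDP-glucose epimerase, had 157, 264 and 89.5 RPKM in nga, 102, 59.7 and 128 RPKM in 35S:NGA, and 22.1 and 19.8 RPKM in WT and rose by 2.46 ± 0.40 (SE, adjusted p = 0.0366), and its relative UGE3 rose by 2.03 ± 0.34 (SE, adjusted p = 0.0371). CAT2, a peroxisomal catalase, rose by 1.90 ± 0.37 (SE, adjusted p = 0.039), and HGO, homogentisate dioxygenase of tyrosine breakdown, by 2.12 ± 0.40 (SE, adjusted p = 0.0385). MYBL2, a repressor of anthocyanin synthesis, had 21.1, 41.5 and 14.1 RPKM in nga, 10.5, 6.56 and 11.8 RPKM in 35S:NGA, and 2.47 and 2.67 RPKM in WT and rose by 2.15 ± 0.36 (SE, adjusted p = 0.0367). AT2G05540 had 88.5, 212 and 73.5 RPKM in nga, 66.4, 78.0 and 74.7 RPKM in 35S:NGA, and 3.22 and 0.968 RPKM in WT and rose by 4.98 ± 0.41 (SE, adjusted p = 0.0144), with a gap of 3.997 between the nearest libraries of the lines and WT, against 3.80 for SEN1. On the lower side only QQS and GSR 1 met the same limits.

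The NGATHA-like B3 gene that RefSeq lists as ABS2 rose to almost the same extent in loss and gain. ABS2 (AT2G36080, chr2:15148259-15151634), also chosen after its values were seen, had 8.30, 14.1 and 8.12 RPKM in nga, 9.07, 8.81 and 12.6 RPKM in 35S:NGA, and 1.96 and 2.06 RPKM in WT. No line library was under 8 RPKM, and the combined change was 1.86 ± 0.22 (SE, adjusted p = 0.0253), with 1.85 in nga and 1.87 in 35S:NGA.

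Among the genes that fell in both lines, QQS (AT3G30720, chr3:12349047-12349933), an orphan gene that affects the balance of starch and protein, had 3.72, 14.1 and 9.91 RPKM in nga, 3.10, 1.47 and 5.10 RPKM in 35S:NGA, and 33.3 and 33.6 RPKM in WT, with a change of -2.51 ± 0.45 (SE, adjusted p = 0.0376). Its libraries did not overlap between lines and WT, and within lane 6 the nga difference was -2.03. CHIL (AT5G05270, chr5:1563286-1565324), a chalcone isomerase-like protein that aids flavonoid synthesis, had 8.44, 23.8 and 19.7 RPKM in nga, 13.2, 30.7 and 22.9 RPKM in 35S:NGA, and 60.1 and 79.3 RPKM in WT, a change of -1.86 ± 0.40 (SE, adjusted p = 0.0448). GDU4, of the GLUTAMINE DUMPER family of amino acid export, had 7.89, 4.19 and 4.39 RPKM in nga, 3.495, 6.84 and 3.04 RPKM in 35S:NGA, and 14.6 and 21.5 RPKM in WT, a change of -1.71 ± 0.31 (SE, adjusted p = 0.0376). EXT3, a cell wall extensin, had 10.7, 4.74 and 9.72 RPKM in nga, 23.1, 31.4 and 10.12 RPKM in 35S:NGA, and 53.6 and 66.0 RPKM in WT, a change of -2.15 ± 0.41 (SE, adjusted p = 0.0385). All of these were lower in each line library than in either WT library.

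ENODL14, an early nodulin-like arabinogalactan protein, had 24.7, 13.01 and 41.5 RPKM in nga, 16.6, 18.15 and 17.2 RPKM in 35S:NGA, and 62.0 and 83.5 RPKM in WT and fell, with -1.77 ± 0.35 (SE, adjusted p = 0.0394), and the 3 35S:NGA libraries lay close together. GSR 1, a cytosolic glutamine synthetase, had 15.6, 13.8 and 41.0 RPKM in nga, 22.7, 35.8 and 38.9 RPKM in 35S:NGA, and 99.8 and 85.7 RPKM in WT, a change of -1.81 ± 0.38 (SE, adjusted p = 0.0437). TET7, a tetraspanin, fell with -1.75 ± 0.30 (SE, adjusted p = 0.0376), and ARD3, an acireductone dioxygenase of methionine salvage, with -1.55 ± 0.25 (SE, adjusted p = 0.0366). KAT5, a thiolase of fatty acid breakdown, fell with -1.59 ± 0.36 (SE, adjusted p = 0.0475). KAT2 (AT4G18290, chr4:10114794-10118652), an inward potassium channel known from guard cells, had 3.20, 2.46 and 4.98 RPKM in nga, 5.33, 13.05 and 5.96 RPKM in 35S:NGA, and 18.1 and 23.1 RPKM in WT, a change of -1.80 ± 0.32 (SE, adjusted p = 0.0376).

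Some genes of the flavonoid and phenylpropanoid list were lower in both lines. Of its 19 tested members, 7 (36.8%) were shared and lower, beside 14.9% of all genes, 0 were shared and higher, and 12 were not shared. The combined comparison called 5 of the 19 lower, beside 1.86% of all genes, with a median of -0.67, and -0.76 in nga and -0.48 in 35S:NGA. CHS, chalcone synthase, had 33.0, 59.8 and 81.0 RPKM in nga, 70.1, 149 and 157 RPKM in 35S:NGA, and 247 and 269.6 RPKM in WT, a change of -1.67 ± 0.38 (SE, adjusted p = 0.0489). CHI, chalcone isomerase, had 19.98, 24.6 and 26.8 RPKM in nga, 30.8, 38.7 and 38.2 RPKM in 35S:NGA, and 69.1 and 75.6 RPKM in WT, a change of -1.29 ± 0.14 (SE, adjusted p = 0.0231). FLS1 (AT5G08640, chr5:2803833-2805606), flavonol synthase, had 15.6, 21.3 and 22.9 RPKM in nga, 37.7, 78.1 and 54.9 RPKM in 35S:NGA, and 119.7 and 145 RPKM in WT, a change of -1.97 ± 0.26 (SE, adjusted p = 0.0292). 4CL3, a 4-coumarate ligase, fell with -1.48 ± 0.29 (SE, adjusted p = 0.039). For each of these the lowest WT library was above the highest library of either line.

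The fifth call, F3'H, the flavonoid hydroxylase, was not shared: it had 2.48, 1.78 and 4.496 RPKM in nga, 13.01, 28.6 and 24.9 RPKM in 35S:NGA, and 23.7 and 32.5 RPKM in WT, so that 35S:NGA 2 and 35S:NGA 3 reached the WT range. F3H was shared at -1.27 ± 0.42 (SE, adjusted p = 0.0971), as were the activators MYB111 and MYB11 at -1.02 ± 0.39 (SE, adjusted p = 0.126) and -0.69 ± 0.23 (SE, adjusted p = 0.096), without passing the test. The proanthocyanidin gene BAN had 1.30, 0.747 and 4.84 RPKM in nga, 0.212, 0.805 and 7.79 RPKM in 35S:NGA, and 1.13 and 1.15 RPKM in WT, which overlaps. The count of called members was 9 without the lane 8 libraries, 7 without nga 3, 2 without nga 2, 35S:NGA 1 or 35S:NGA 3, 1 without nga 1 or with no filter on low values, and 0 without either WT library.

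Cell cycle and DNA replication genes were mostly lower in both lines, with few calls. Of 26 tested members 16 (61.5%) were shared and lower, beside 14.9% of all genes, and 0 were shared and higher. The number called lower was 3, beside 1.86% of all genes, and the median was -0.67, with -0.74 in nga and -0.55 in 35S:NGA. All 6 tested subunits of the MCM replicative helicase, MCM2 to MCM7, were shared and lower. MCM7 had 26.1, 17.9 and 25.6 RPKM in nga, 29.5, 42.7 and 31.9 RPKM in 35S:NGA, and 46.7 and 59.4 RPKM in WT and fell with -0.89 ± 0.20 (SE, adjusted p = 0.0468), and MCM5 fell with -0.996 ± 0.22 (SE, adjusted p = 0.0478). MCM2, MCM3, MCM4 and MCM6 had adjusted p of 0.0796, 0.0674, 0.071 and 0.0726. CDKB1;2, a mitotic cyclin-dependent kinase, had 7.72, 6.74 and 9.42 RPKM in nga, 9.57, 8.68 and 9.23 RPKM in 35S:NGA, and 13.8 and 13.6 RPKM in WT and fell with -0.63 ± 0.13 (SE, adjusted p = 0.0431).

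Cyclins of the list are given by a pair of examples. CYCB1;2, a mitotic cyclin, had 40.1, 32.1 and 67.4 RPKM in nga, 41.6, 43.0 and 50.3 RPKM in 35S:NGA, and 76.2 and 74.2 RPKM in WT, lower in every line library but without a call, at -0.74 ± 0.24 (SE, adjusted p = 0.0947). CYCD3;2, a D-type cyclin, was not shared, with 339, 363 and 260.4 RPKM in nga, 179, 124 and 136 RPKM in 35S:NGA, and 132 and 114 RPKM in WT, and the lines differed by -1.13 ± 0.19 (SE, adjusted p = 0.0144) (35S:NGA minus nga). The list's median in the libraries was -0.78, -1.16 and -0.35 in nga 1 to nga 3, -0.63, -0.44 and -0.48 in 35S:NGA 1 to 35S:NGA 3, and 0.01 and -0.01 in WT. Called lower members numbered 20 without the lane 8 libraries, 19 without nga 3, 16 once the lane was a term and 8 with the replicate number as a block. They numbered 2 without 35S:NGA 2, 1 without nga 2, and 0 without nga 1, 35S:NGA 1, 35S:NGA 3 or either WT library.

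**Figure D3:**
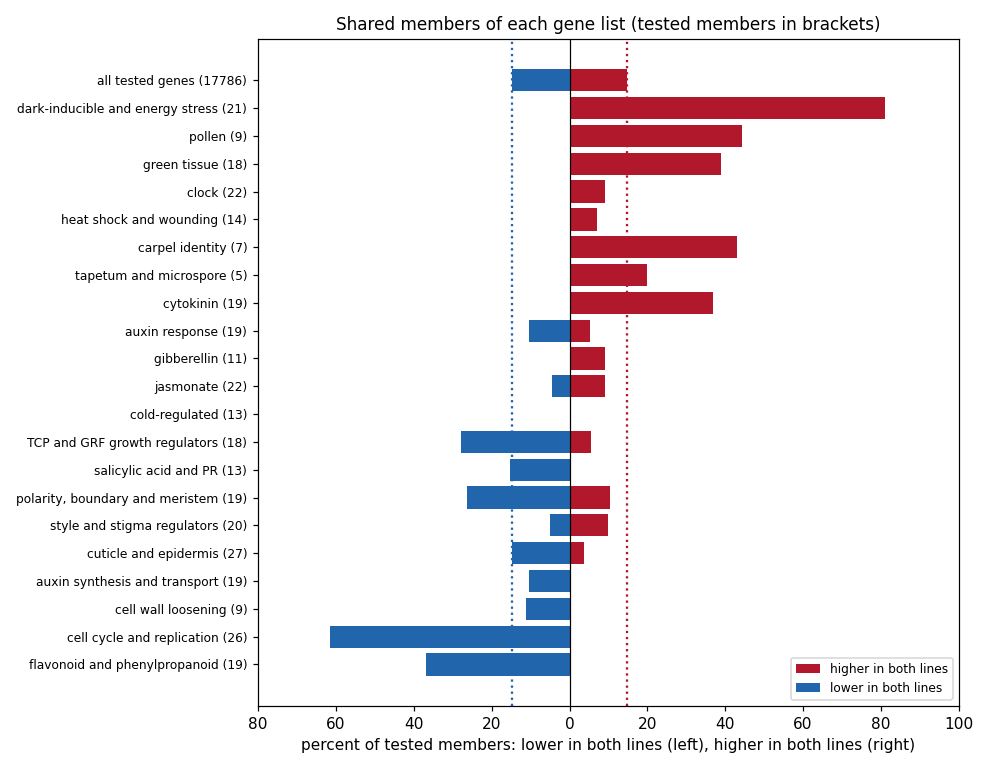
Share of the tested members of each list drawn that is shared and lower (blue, to the left) or shared and higher (red, to the right), in percent, with all tested genes in the top row and as dotted lines. The short NGATHA list and the petal and stamen identity list are not drawn. The energy stress list reaches 81.0% on the higher side, and the cell cycle list 61.5% on the lower side, beside 14.8% and 14.9% of all genes. The lists were chosen with earlier results of these data known.

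Some regulators of polarity and organ growth fell. Of 19 tested polarity, boundary and meristem genes, 5 (26.3%) were shared and lower, beside 14.9% of all genes, 2 (10.5%) were shared and higher, beside 14.8%, and 3 were called lower, beside 1.86%. The YABBY genes mark the outer side of lateral organs. FIL (AT2G45190, chr2:18628252-18630779) had 87.2, 55.4 and 59.3 RPKM in nga, 32.9, 36.8 and 21.0 RPKM in 35S:NGA, and 106 and 115 RPKM in WT, a change of -1.31 ± 0.24 (SE, adjusted p = 0.0376), and YAB5 had 7.62, 5.22 and 5.85 RPKM in nga, 1.53, 1.84 and 0.461 RPKM in 35S:NGA, and 11.5 and 11.1 RPKM in WT, a change of -1.63 ± 0.25 (SE, adjusted p = 0.0366). YAB3 was called at -0.98 ± 0.18 (SE, adjusted p = 0.0376) but was not shared, since nga 3 lay between the WT libraries. Of 18 TCP and GRF growth regulators, 5 (27.8%) were shared and lower, 1 shared and higher and 2 called lower, beside the same shares of all genes. No member of either list was called lower without nga 1 or without 35S:NGA 1. TCP4, which restrains cell division in leaves and petals, had 2.74, 1.82 and 3.33 RPKM in nga, 1.92, 2.65 and 2.09 RPKM in 35S:NGA, and 6.27 and 5.30 RPKM in WT, a change of -0.999 ± 0.19 (SE, adjusted p = 0.0383). GRF3, which promotes growth, had 27.1, 27.0 and 30.9 RPKM in nga, 39.7, 44.2 and 36.0 RPKM in 35S:NGA, and 48.4 and 48.6 RPKM in WT, a change of -0.52 ± 0.11 (SE, adjusted p = 0.0462).

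Of 20 tested style and stigma regulators, 2 were shared and higher and 1 shared and lower, 10% and 5% of them, beside 14.8% and 14.9% of all genes. The test of 35S:NGA against nga called 8 of them, beside 5.34% of all genes. ALC, a bHLH factor of the fruit and style, had 209, 241 and 146 RPKM in nga, 163, 142 and 166 RPKM in 35S:NGA, and 81.3 and 69.9 RPKM in WT and rose by 1.20 ± 0.19 (SE, adjusted p = 0.0366). HEC2, a bHLH factor of the transmitting tract, had 5.12, 3.68 and 3.97 RPKM in nga, 4.36, 5.52 and 7.45 RPKM in 35S:NGA, and 9.85 and 11.01 RPKM in WT and fell, with -0.95 ± 0.19 (SE, adjusted p = 0.0402). HEC1 and BEE1 were called lower in the combined comparison without being shared, with -1.25 in nga and 0.02 in 35S:NGA for HEC1 and -1.73 in nga and 0.36 in 35S:NGA for BEE1. Among 7 carpel identity genes 3 were shared and higher (42.9%, beside 14.8% of all genes) and 1 was called higher, beside 3.00% of all genes. SPT, a bHLH factor of the carpel margin, had 45.1, 39.2 and 36.8 RPKM in nga, 63.2, 67.4 and 53.4 RPKM in 35S:NGA, and 31.1 and 30.9 RPKM in WT and rose by 0.66 ± 0.13 (SE, adjusted p = 0.0385). SHP1, a MADS-box gene, was at 0.48 ± 0.15 (SE, adjusted p = 0.0866) and INO, an ovule YABBY gene, at 0.41 ± 0.13 (SE, adjusted p = 0.0968), both without a call. CRC, a YABBY gene known from carpels and nectaries, was between 7.39 and 60.5 RPKM in all 8 libraries, so this marker of the labelled tissue was present in every one.

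Among the hormone lists, cytokinin had the highest share of shared genes. Of its 19 tested members, 7 (36.8%) were shared and higher, beside 14.8% of all genes, and 0 were shared and lower. In this list 1 gene was called higher and 1 lower, beside 3.00% and 1.86% of all genes, and the median was 0.32. The number called higher became 7 when the lane was a term and 6 without the lane 8 libraries or without nga 3, and 0 without nga 1, any 1 of the 35S:NGA libraries or either WT library. LOG1, a cytokinin-activating enzyme, had 17.7, 41.8 and 17.98 RPKM in nga, 33.6, 26.3 and 32.1 RPKM in 35S:NGA, and 8.41 and 9.55 RPKM in WT and rose by 1.49 ± 0.30 (SE, adjusted p = 0.0418). The response regulators ARR5, ARR7 and ARR9, the receptors AHK3 and AHK4 and the enzyme LOG5 were shared without a call, and ARR5 had 19.8, 24.1 and 10.2 RPKM in nga, 10.6, 9.88 and 11.6 RPKM in 35S:NGA, and 6.02 and 6.35 RPKM in WT. The called lower gene, LOG8, was not shared: it had -1.92 in nga and 0.62 in 35S:NGA. In auxin synthesis and transport 2 of 19 (10.5%) were shared and lower, beside 14.9% of all genes, and 1 was called lower. YUC6, an auxin synthesis enzyme, had 3.3003, 2.28 and 3.51 RPKM in nga, 1.95, 2.08 and 1.39 RPKM in 35S:NGA, and 5.75 and 5.11 RPKM in WT, a change of -0.95 ± 0.17 (SE, adjusted p = 0.0376), and PID, a kinase that directs auxin transport, was at -0.55 ± 0.19 (SE, adjusted p = 0.1). Of 19 auxin response genes 1 was shared and higher and 2 shared and lower (5.26% and 10.5%), with 0 calls. IAA13 and ARF8 were at 0.53 ± 0.12 (SE, adjusted p = 0.0503) and -0.40 ± 0.12 (SE, adjusted p = 0.0788).

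Of 11 gibberellin genes 1 (9.09%) was shared and higher, beside 14.8% of all genes, and 1 was called higher, beside 3.00%. This was the receptor gene GID1C, which had 18.5, 26.4 and 11.8 RPKM in nga, 13.8, 9.67 and 8.06 RPKM in 35S:NGA, and 5.39 and 3.48 RPKM in WT and rose by 1.45 ± 0.30 (SE, adjusted p = 0.0429). Of 22 jasmonate genes 2 were shared and higher and 1 shared and lower (9.09% and 4.55%, under the shares of all genes), with 0 calls. VSP1, a jasmonate-induced storage protein, had 937, 1013 and 2456 RPKM in nga, 1573, 1788 and 2209 RPKM in 35S:NGA, and 4154 and 5263 RPKM in WT and was at -1.58 ± 0.38 (SE, adjusted p = 0.0536), below WT in every line library without passing the test. Of 13 salicylic acid and pathogenesis-related genes 2 were shared and lower (15.4%, near the 14.9% of all genes), EDS5 and ICS1, at -0.59 ± 0.19 (SE, adjusted p = 0.0927) and -0.37 ± 0.15 (SE, adjusted p = 0.138), and the 1 call, PR5, came from nga, with -3.37 there and 0.07 in 35S:NGA. None of 13 cold-regulated genes was shared. Of 22 clock genes 2 (9.09%) were shared and higher, and of 14 heat shock and wounding genes 1 (7.14%), beside 14.8% of all genes. There were 0 calls in these 3 lists. In the clock list RVE4 and RVE1 were at 1.89 ± 0.50 (SE, adjusted p = 0.0645) and 2.499 ± 0.91 (SE, adjusted p = 0.117), and RVE1 had 10.3, 178 and 16.5 RPKM in nga, 18.4, 7.95 and 15.5 RPKM in 35S:NGA, and 3.55 and 2.21 RPKM in WT, so that nga 2 was far above the rest. TCH3, a touch-induced calmodulin-like gene of the wounding list, was at 1.04 ± 0.35 (SE, adjusted p = 0.0982).

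Of 27 cuticle and epidermis genes 1 was shared and higher and 4 (14.8%) were shared and lower, near the 14.9% of all genes, and 3 were called lower, beside 1.86% of all genes. LACS2, an acyl-CoA synthetase of cutin synthesis, had 41.7, 33.7 and 39.97 RPKM in nga, 50.5, 61.0 and 50.2 RPKM in 35S:NGA, and 76.5 and 73.3 RPKM in WT, a change of -0.71 ± 0.13 (SE, adjusted p = 0.0376). DCR, a cutin acyltransferase, fell with -0.57 ± 0.13 (SE, adjusted p = 0.0499), and CER2, of wax elongation, fell with -1.34 ± 0.24 (SE, adjusted p = 0.0376). In the list of 9 cell wall loosening genes 1 (11.1%, beside 14.9% of all genes) was shared and lower, XTH9, at -1.02 ± 0.39 (SE, adjusted p = 0.126). The median of the cuticle list was -0.48 in nga and -0.02 in 35S:NGA, and that of the cell wall loosening list -0.78 in nga and 0.21 in 35S:NGA.

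Lists for tissues other than carpels were partly higher in both lines, and their part in the results was not tested. Of 18 green tissue genes 7 (38.9%) were shared and higher, beside 14.8% of all genes, with 0 calls and a median of 0.58. Called higher members numbered 9 with the lane as a term, where the median was 1.01, 5 without the lane 8 libraries and 3 without nga 3. LHCA4, of the photosystem I antenna, was at 1.76 ± 0.49 (SE, adjusted p = 0.07), and the list summed to between 4648 and 9343 RPKM in the lines, with nga 2 and 35S:NGA 3 the highest, and to 4061 and 4214 RPKM in WT. Of 9 pollen genes 4 (44.4%) were shared and higher, with 0 calls and a median of 1.08, and VGD1, a pollen pectin methylesterase, had 77.6, 43.9 and 55.6 RPKM in nga, 34.3, 88.2 and 148 RPKM in 35S:NGA, and 13.96 and 31.5 RPKM in WT. The pollen list summed to between 65.2 and 243.8 RPKM in the lines and to 28.3 and 60.6 RPKM in WT. The petal and stamen identity genes AP3 and PI, which are not carpel genes, stood at 9.998 to 17.7 and 1.98 to 5.46 RPKM over all libraries. PI rose by 0.70 ± 0.16 (SE, adjusted p = 0.0499) and AP3, at -0.39 ± 0.20 (SE, adjusted p = 0.226), was lower in every line library without a call. Of 5 tapetum and microspore genes 1 (20%, beside 14.8% of all genes) was shared and higher, TKPR1, which rose by 1.08 ± 0.20 (SE, adjusted p = 0.0385).

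**Figure D4:**
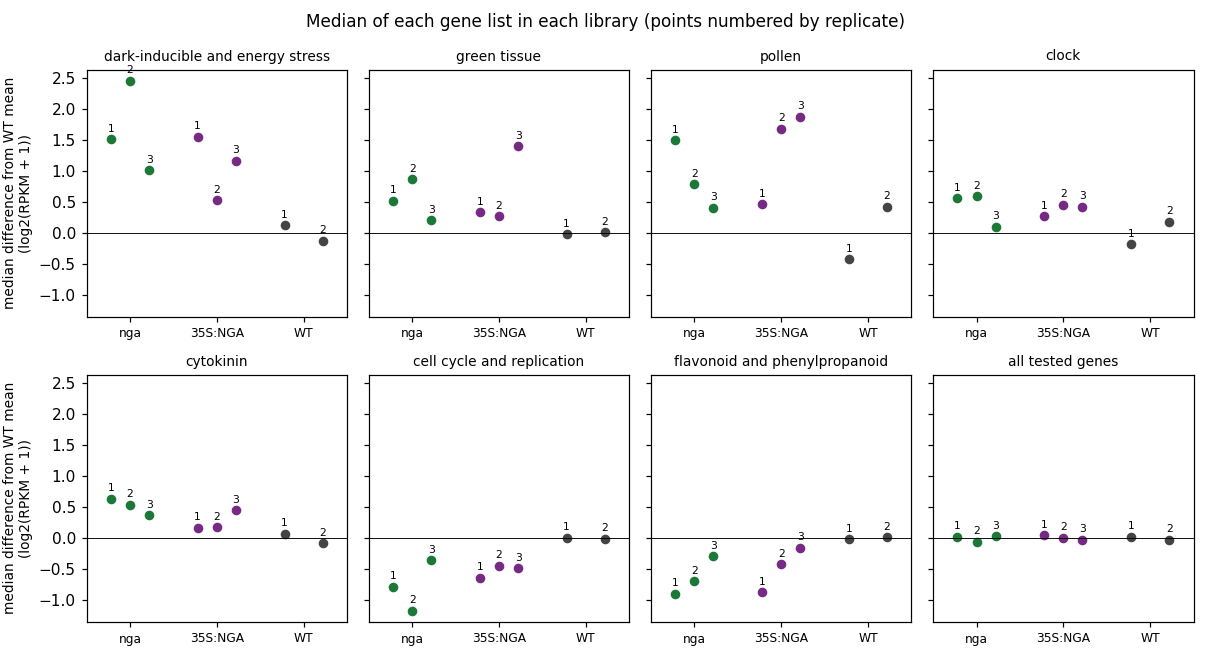
Median difference from the WT mean, in log2(RPKM + 1), of 7 gene lists and of all tested genes in each library, numbered by replicate, with nga and 35S:NGA left of WT. The energy stress list is above WT in all 6 line libraries, and the green tissue list is highest in 35S:NGA 3 and nga 2.

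The size of the change was compared between the lines. The larger of the 2 differences from WT was in nga for 73.0% of the shared higher and 74.1% of the shared lower genes. The library nga 2 alone was the farthest from WT in 46.5% and 65.4% of them. Only nga has libraries in the lane of WT. The part of nga 2 and of the lane in these shares was not tested. In each line's own comparison with WT, which share the WT libraries, 3008 genes were called in nga (16.9% of those tested) and 27 in 35S:NGA (0.152%), and 2059 and 16 of these were shared. At an unadjusted p under 0.05 (limma) the counts were 6465 in nga and 3629 in 35S:NGA, so they lay much closer before adjustment. The counts of calls are then no measure of how much larger the change was in nga. The direct test of 35S:NGA against nga called 949 genes, 5.34% of those tested. Of the shared genes it called 107, or 2.03%, and of the genes not shared 842, or 6.73%, where the shared rule itself leaves out genes that the lines move in opposite ways. In the shared higher genes 14 of 55 such calls had 35S:NGA above nga and 41 had it below, and in the shared lower genes 41 of 52 had 35S:NGA above nga and 11 below, so the difference from WT was the larger one in nga in most. The count of 107 became 572 when lane 8 was left out, 707 without nga 3, 21 without nga 1 and 11 once the lane was a term. It became 43 without nga 2, 67 without WT 2, and 65, 40 and 63 when 35S:NGA 1, 35S:NGA 2 or 35S:NGA 3 was left out.

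Some shared increases were far larger in one line. ASN1 differed by -2.54 ± 0.57 (SE, adjusted p = 0.0431) and GLYI4 by -2.37 ± 0.53 (SE, adjusted p = 0.0424), 35S:NGA minus nga, both higher in nga. BZIP9, a bZIP factor of the low-energy group, had 128, 185 and 117 RPKM in nga, 52.4, 27.96 and 67.5 RPKM in 35S:NGA, and 15.4 and 10.9 RPKM in WT and differed by -1.58 ± 0.32 (SE, adjusted p = 0.0316). SCPL13, a serine carboxypeptidase-like protein, had 68.6, 55.0 and 37.6 RPKM in nga, 21.7, 15.5 and 19.6 RPKM in 35S:NGA, and 8.57 and 7.36 RPKM in WT and differed by -1.43 ± 0.22 (SE, adjusted p = 0.0111). In the reverse direction SCPL7, of the same family, had 1.05, 1.21 and 1.72 RPKM in nga, 2.97, 9.08 and 4.46 RPKM in 35S:NGA, and 0.890 and 0.815 RPKM in WT, with 35S:NGA higher by 1.38 ± 0.31 (SE, adjusted p = 0.0449), but its combined difference did not pass the test (1.01 ± 0.31 (SE, adjusted p = 0.0861)).

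Among the genes lower in both lines, ANNAT1, a calcium-binding annexin, had 13.5, 10.3 and 5.93 RPKM in nga, 80.7, 105 and 84.5 RPKM in 35S:NGA, and 108 and 121 RPKM in WT. The nga libraries were far below WT and the 35S:NGA libraries just below it, a difference between the lines of 3.11 ± 0.25 (SE, adjusted p = 0.000598). FLS1 was also lower in nga than in 35S:NGA, with 1.42 ± 0.26 (SE, adjusted p = 0.0207), as were TYRDC, a tyrosine decarboxylase, with 1.31 ± 0.15 (SE, adjusted p = 0.00313), and SKS6, a multicopper oxidase-like protein, with 1.27 ± 0.17 (SE, adjusted p = 0.00631). YAB5 went the other way, with -1.71 ± 0.25 (SE, adjusted p = 0.00903), as did FIL, with -1.14 ± 0.24 (SE, adjusted p = 0.0339), so YAB5 and FIL were lower in 35S:NGA than in nga.

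Other genes changed almost equally in loss and gain. TPS11 differed from WT by 1.69 in nga and 1.68 in 35S:NGA. TRX5, a cytosolic thioredoxin, had 13.7, 25.3 and 18.3 RPKM in nga, 20.5, 19.0 and 16.2 RPKM in 35S:NGA, and 8.48 and 6.80 RPKM in WT, with 1.19 in nga and 1.18 in 35S:NGA. NAC096, a NAC transcription factor, differed by 1.01 in nga and 1.03 in 35S:NGA. SKS1, related to SKS6, had 10.6, 5.55 and 8.54 RPKM in nga, 8.90, 7.82 and 7.27 RPKM in 35S:NGA, and 20.2 and 18.5 RPKM in WT, with -1.18 in nga and -1.18 in 35S:NGA. These were named for having the smallest difference between the lines, so that likeness is a description. ATSDI1, a sulfur-deficiency-induced gene, and RPI2, a ribose phosphate isomerase, were chosen by the same rule but did not pass the combined test, at -2.38 ± 0.82 (SE, adjusted p = 0.103) and -1.51 ± 0.45 (SE, adjusted p = 0.0808), and ATSDI1 had 0.262, 0.723 and 9.81 RPKM in nga, 2.16, 4.92 and 0.373 RPKM in 35S:NGA, and 11.9 and 16.7 RPKM in WT, with a wide spread inside each line.

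**Figure D5:**
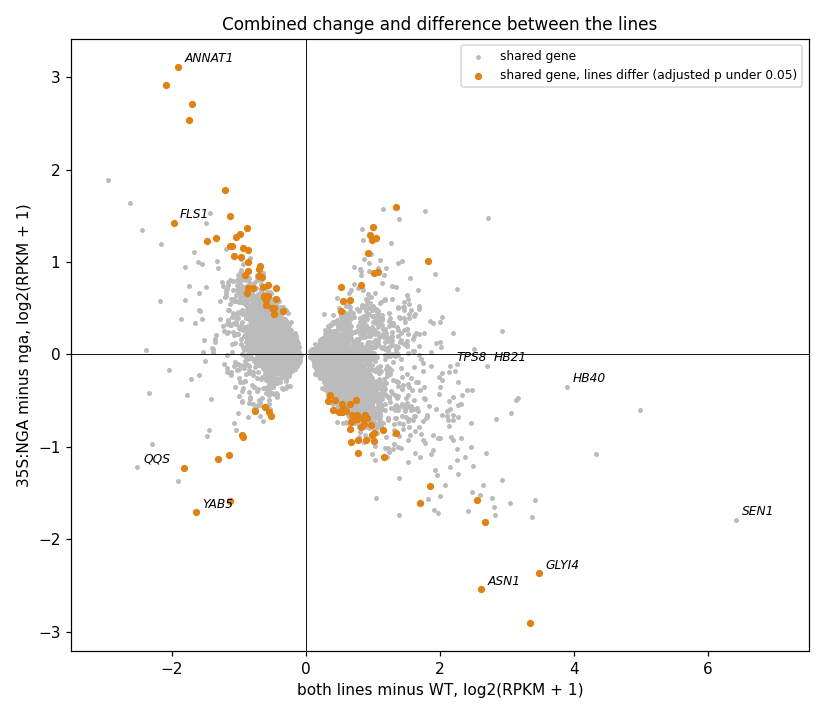
Each shared gene by its combined difference from WT (horizontal axis, both lines minus WT) and the difference between the lines (vertical axis, 35S:NGA minus nga), both on the log2(RPKM + 1) scale, with the 107 genes whose lines differ in orange. HB21, HB40 and TPS8 lie near 0 on the vertical axis, GLYI4 and ASN1 far below it and ANNAT1 far above.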

How the data were processed

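RNA was sequenced in 8 libraries of hand-picked carpels. The libraries were made with Illumina TruSeq RNA kits and run on a HiSeq2000, per the labels' protocols. The deposited values are RPKM computed by the authors for 33590 entries per library, per the file headers, written with decimal commas. The submitters' processing notes name FastQC and TAIR10, and neither aligner nor counter is given in the sources used here. The unit is not a read count, so no count test was run. Low values fell within 0.03 of whole reads for only 39.5% to 45.8% of entries at the best depth between 15 M and 45 M reads, so reads were not recovered and the depths are approximate. That range was set after a wider search gave a doubled depth for nga 3, since multiples of a depth cannot be told apart in this way.

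Left out were 6374 entries without a locus, all at 0, 18 entries of 9 repeated loci and 1 malformed entry. Of 27197 loci, 26710 matched the TAIR10.1 annotation, which gave symbols and coordinates. Values were taken as log2(RPKM + 1), and genes reaching 1 RPKM in 2 or more libraries entered 1 limma model with a mean-variance trend and a term per group. Alternatives were other pseudocounts, filters and scalings, 2 groups, a replicate block, a lane term, a 2-fold limit, and fits without lane 8 or without each library. There were 23 lists with 392 genes, and 3 loci were left out because the annotation does not pair them with the list's name. List members are described by counts and medians, with no list test.

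Genes were named by rule: the 4 NGATHA genes, the 10 shared and called genes per direction whose smaller change in the lines was largest (with a symbol and a group mean of at least 5 RPKM), up to 2 shared members of each list, up to 5 per direction with a called difference between the lines, up to 3 per direction with the smallest one, and those next to the shared limit. Other genes shown are members of the lists, or are said to have been chosen after their values were seen. The comparison, the lists and the rule were chosen with earlier results of these data known. Tools were Python 3.11.15, pandas 2.3.3, numpy 2.4.6, matplotlib 3.10.9, R 4.3.3 and limma 3.58.1.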

Additional observations from a re-analysis of the deposited data

Results flagged for a closer look

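Genes are given here because the test of 35S:NGA against nga (limma, 35S:NGA minus nga, log2 scale) found the effects of the lines to differ. Among the NGATHA genes the difference was 5.10 for NGA3 (adjusted p = 1.09e-05) and 2.13 for NGA4 (adjusted p = 0.000222). Among shared higher genes it was -2.54 for ASN1, -2.37 for GLYI4, -1.58 for BZIP9 and -1.43 for SCPL13, each higher in nga, and 1.38 for SCPL7 and 0.59 for SPT, each higher in 35S:NGA. Among shared lower genes it was 3.11 for ANNAT1, 1.42 for FLS1, 1.31 for TYRDC, 1.27 for SKS6 and 1.26 for CER2, each lower in nga. It was -1.71 for YAB5 and -1.14 for FIL, each lower in 35S:NGA.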

How the results depend on the processing

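The calls depended on the fit, which the shared rule does not use. Beside the 863 calls (533 higher, 330 lower), 2 (2 higher, 0 lower; 4083 genes at an unadjusted p under 0.05) were made with both lines as 1 group, 27 (16, 11) with no filter, of which 21 were among the 863, and 299 (204, 95) with at least a 2-fold change. There were 1644 calls (924, 720) with the replicate block, 2585 (1161, 1424) when the lane entered as a term and 3932 (1968, 1964) when lane 8 was left out. Lower calls numbered 620 after quantile normalization and 564 with library medians set equal. Leaving out each library gave 0 to 3431 calls, 0 to 1711 higher and 0 to 1720 lower. It gave 2761 to 4370 shared higher and 2679 to 3609 shared lower genes. Shared genes that differ between the lines numbered 107, and 11 with the lane as a term, 572 without lane 8, 40 at 2-fold or more and 21 to 707 without each library. The cause of these differences was not tested. With 1 WT library left, its spread is taken to be that of the other groups.

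Replicate numbers were not taken to pair the samples. The correlations of the deviations of same-numbered libraries were 0.10, -0.15 and 0.24 for nga and 35S:NGA, -0.26 and -0.07 for nga and WT, and 0.35 and 0.37 for 35S:NGA and WT, where with 2 WT libraries their deviations mirror each other. Unlike-numbered nga and 35S:NGA libraries had correlations between -0.28 and 0.23. Whether same-numbered libraries share more than a number was not tested. Of the calls with the replicate block, 689 were also among the 863. The count of shared genes does not depend on the pseudocount, the block or the lane term, since it reads only the order of the values. Leaving out a library drops a condition of the rule, so apart from the filter that count can only rise.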
